A study of Mus musculus with 14 samples.

Results

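Toll-like receptors and the proteins that pass on their signal were followed across 4 B cell subsets of the mouse spleen. The genes were the receptors Tlr1, Tlr4, Tlr6, Tlr7 and Tlr9, the receptor-like Cd180 with its partner Ly86, the adaptor Myd88, and the kinase family members Irak3 and Irak4. Members were the probe sets whose annotated symbol was one of these names. Of the 10 genes, 9 had such a probe set, with 15 probe sets in all, among 18193 genes represented on the arrays. Irak4 was not analysed here. Each gene was read from its brightest probe set. Tlr4, Tlr7 and Irak3 had other probe sets, which served as a check. The other measured genes, Tlr1 and Ly86 among them, had no other probe set and so no such check.

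The RNA came from spleen cells of male C57Bl/Ka mice and was measured on 14 Affymetrix arrays. Naive B cells (3 arrays) came from unimmunized mice aged 4 to 8 weeks and were double sorted as B220+ CD23+ IgD+ cells with low IgM and a lambda light chain. The other subsets bound the hapten NP and came from mice injected intraperitoneally with NP-CGG, NP coupled to a carrier protein, in alum. The dose was 100 µg on every immunized array except plasma replicate 1, for which the labels give none. Plasma cells (4 arrays) were taken at day 7 from mice aged 5 to 9 weeks and had low B220, syndecan-1 and no binding of the lectin PNA. Germinal center cells (3 arrays) were taken at day 14 from mice aged 6 to 10 weeks and were PNA+ with low CD38. Memory cells (4 arrays) were taken at 10 to 12 weeks from mice aged 14 to 18 weeks and were CD38-high without IgM, IgD or PNA binding. T cell markers (CD3, CD4, CD8 and CD5), CD11b, Gr-1 and Ter119 were gated out in all sorts. The labels do not say that replicates came from separate mice, or whether mice were pooled, so the p-values cover the spread among these arrays alone and that spread may be technical. Age and time after immunization moved with the subset and cannot be told apart from it.

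Toll-like receptors recognise conserved parts of microbes. TLR1 and TLR6 each pair with TLR2 on the cell surface to bind lipopeptides, TLR4 binds lipopolysaccharide, and TLR7 and TLR9 bind RNA and DNA inside endosomes. Most of them signal through the adaptor MyD88, which assembles IRAK kinases into a complex that leads to NF-kappa B and IRF factors. CD180, also called RP105, resembles the outer part of TLR4, needs the secreted partner MD-1 (the product of Ly86) to reach the surface, and is known chiefly from B cells.

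The labels were first set against marker genes. Values are linear intensities, and group values are means of log2 turned back to intensity. Mki67, a proliferation gene, was at 6850 in germinal center, 5813 in plasma, 229 in memory and 14.6 in naive cells. Sdc1, which encodes syndecan-1, was at 2657 in plasma and 142 in naive cells, and above background on 0 germinal center arrays and 1 memory array. Fcer2a, which encodes CD23, was at 1682 in naive, 709.6 in memory, 252 in germinal center and 13.5 in plasma cells, with 1242 on memory replicate 1. The summed intensity of 4 measured germinal center markers, Mki67 among them, was 9005 to 12699 in germinal center and 5617 to 6674 in plasma cells. It was 1270 to 1787 in naive and 674 to 990 in memory cells. For 3 measured memory markers the sum was 221 to 356 in memory and 85.7 to 180 in germinal center cells. It was 39.7 to 44.0 in naive and 31.3 to 36.2 in plasma cells. An array's background was taken as its brightest unspiked bacterial control, between 10.96 and 16.1. Between 52.7% and 66.9% of genes lay above it. The number of arrays limits the precision.

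The summed intensity of 5 measured B lineage markers ranged from 24875 to 27179 in naive, 22921 to 28197 in memory, 13483 to 19327 in germinal center and 6446 to 9833 in plasma cells. The summed intensity of 15 myeloid and dendritic markers, cells that also carry Toll-like receptors, ranged from 288.7 to 322.0 in naive, 282.5 to 370.1 in germinal center, 254.3 to 486.2 in plasma and 568.9 to 852.2 in memory cells. Without Mpeg1, which was at 508 in memory and 99.7 in naive cells, the sum ranged from 178 to 190.4 in memory, 198 to 224 in naive, 193 to 216 in germinal center and 190.2 to 369 in plasma cells, a split made after the values were seen. Of the 15, memory cells had 8 above background on no array, naive and germinal center cells 7 each, and plasma cells 5. Itgam and Cd14 were among these in every subset. Plasma cells had 7 of the 15 above background on every array, memory and naive cells 5 each, and germinal center cells 4. Those present throughout included Csf1r, Adgre1 and Mpeg1 in every subset. The actin ratio of 3' to middle signal, a sign of RNA shortened during amplification or handling, ranged from 4.39 to 5.30 in naive, 6.11 to 17.6 in germinal center, 5.47 to 6.91 in plasma and 4.15 to 5.33 in memory arrays. The same ratio of Gapdh had another order, at 9.44 to 12.0 in naive, 8.23 to 10.9 in germinal center, 5.45 to 8.41 in plasma and 11.03 to 13.02 in memory arrays. The part of these differences in the results was not tested, apart from a fit with the actin ratio as a term.

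Against naive cells, 5 of the 9 measured genes were lower in germinal center cells (Tlr1, Tlr4, Tlr7, Ly86 and Irak3) and 0 were higher, where 11.1% of all genes were called lower and 8.37% higher. In plasma cells 6 were lower (Tlr1, Tlr6, Tlr7, Cd180, Ly86 and Irak3) and 0 higher, where 16.1% of all genes were called lower and 14.2% higher. In memory cells 1 was higher (Tlr6) and 0 lower, where 2.31% of all genes were called higher and 3.26% lower. A call means an adjusted p under 0.05 in limma's moderated test, two-sided and adjusted by Benjamini-Hochberg over all 18193 genes. The median log2 difference from naive over the 9 genes was -1.03 for germinal center cells, -1.44 for plasma cells and 0.35 for memory cells. Over all genes it was 0.06, 0.06 and -0.03, and over the 6116 genes with a mean log2 of at least 6 it was -0.20, -0.25 and -0.20. These 3 comparisons share the same naive arrays. The genes were chosen with earlier results of these data known. Their counts beside the all-gene shares, here and below, are therefore a description and no test of the set. In bulk samples fewer cells expressing a gene and less of its RNA per cell cannot be told apart.

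**Figure D1:**
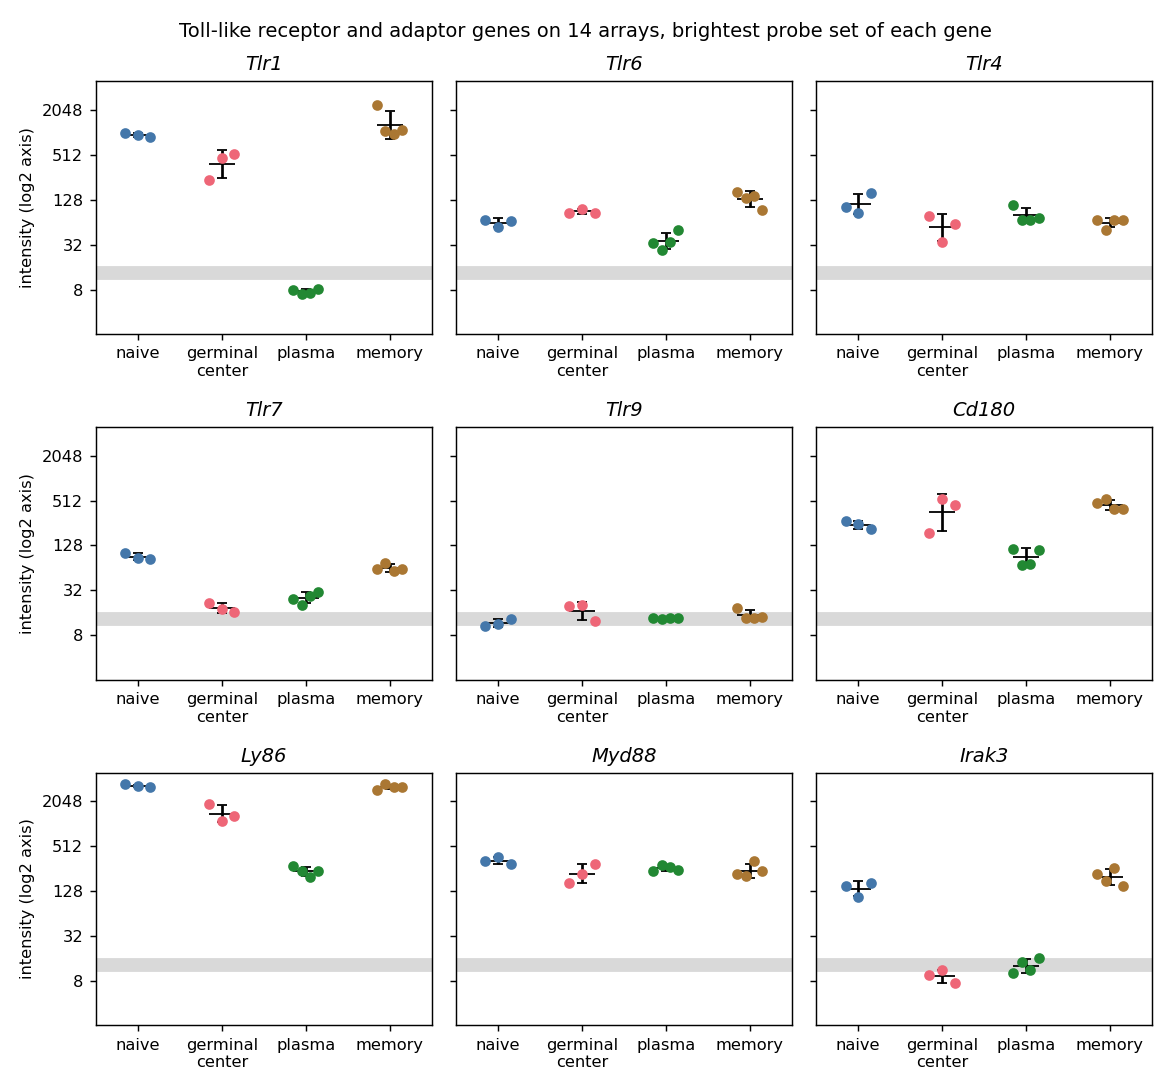
Intensity of the 9 genes on each of the 14 arrays, on a log axis, with 1 panel per gene and 1 point per array. Bars mark the subset mean with the SD of log2, and the grey band spans the arrays' backgrounds. Tlr1 in plasma and Irak3 in germinal center cells lie in or under the band.

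Between the immunized subsets, 4 of the 9 were lower in plasma than in germinal center cells (Tlr1, Tlr6, Cd180 and Ly86), where 12.6% of all genes were called lower and 11.2% higher. Memory cells had 4 higher than germinal center cells (Tlr1, Tlr7, Ly86 and Irak3), where 10.96% of all genes were called higher and 11.5% lower. Plasma cells had 6 lower than memory cells (Tlr1, Tlr6, Tlr7, Cd180, Ly86 and Irak3), where 15.96% of all genes were called lower and 17.2% higher. Myd88 and Tlr9 were called in none of the 6 comparisons in the fit on all arrays, and each was called under some alternatives given with its values.

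Tlr1, which with TLR2 senses triacylated lipopeptides, fell furthest of the 9 in plasma cells. Its intensity on the 3 naive arrays was 992, 934 and 881. Germinal center arrays gave 234, 456 and 523. Memory arrays gave 2400.2, 1066, 958 and 1082. All germinal center arrays lay under all naive arrays, and memory replicate 1 stood above every other array. Plasma arrays gave 7.99, 7.07, 7.24 and 8.05, and none of these was above background. The log2 difference of plasma from naive cells was -6.95 ± 0.30 (SE, n = 4 and 3, limma adjusted p = 4.71e-10). Measured against the background, Tlr1 was at least 68.1-fold lower in plasma than in naive cells, at least 27.8-fold lower than in germinal center cells and at least 92.9-fold lower than in memory cells. Such bounds use the higher of the array's background and the probe set's own signal.

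In germinal center cells Tlr1 was lower than in naive cells by a log2 difference of -1.29 ± 0.32 (95% interval -1.98 to -0.60, limma adjusted p = 0.0103). With the actin ratio as a term the difference was -1.37 ± 0.51 (limma adjusted p = 0.145), so the call did not hold, with a larger SE and no smaller difference. Memory and naive cells were not called different (0.45 ± 0.30, interval -0.20 to 1.09, adjusted p = 0.51), while memory exceeded germinal center cells by 1.74 ± 0.30 (limma adjusted p = 0.000675). The order of Tlr1 was memory, naive, germinal center, plasma, and only memory and naive, as neighbours, were not called different.

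Tlr6, whose product pairs with TLR2 for diacylated lipopeptides, is the direct neighbour of Tlr1 in the RefSeq gene table. Its naive values were 68.9, 54.8 and 67.4. Plasma arrays gave 33.7, 27.1, 35.2 and 49.9. In germinal center cells it was 85.2, 97.1 and 85.8. Memory arrays gave 161, 136, 144 and 93.1. Every plasma array lay under every naive array, and every germinal center and memory array lay over them. The log2 difference from naive cells was -0.83 ± 0.21 in plasma (limma adjusted p = 0.00683) and 1.04 ± 0.21 in memory cells (interval 0.60 to 1.49, adjusted p = 0.00871). In germinal center cells it was 0.49 ± 0.22 (interval 0.01 to 0.97, adjusted p = 0.148) and was not called. The memory call was lost without naive replicate 2 (0.94, limma adjusted p = 0.0507). The plasma call was lost with quantile normalization (-0.54, limma adjusted p = 0.114) and with arrays centred on bright genes (-0.59, limma adjusted p = 0.0519). Plasma lay below germinal center cells by -1.32 ± 0.21 (limma adjusted p = 0.000234) and below memory cells by -1.88 ± 0.19 (limma adjusted p = 2.58e-06). The order was memory, germinal center, naive, plasma, and of the neighbours only naive and plasma were called different. Memory and germinal center cells differed in Tlr6 by 0.55 ± 0.21 (limma adjusted p = 0.0757), called without memory replicate 4 (0.72, limma adjusted p = 0.0181) or plasma replicate 4 (limma adjusted p = 0.0433). That difference was also called with arrays centred on their median gene.

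The promoter windows of these neighbours are shown because Tlr1 and Tlr6 share a locus and a partner receptor while their levels across the subsets differed. Each window runs from 250 bases before to 50 after an annotated start, in RefSeq on GRCm38.p6. Of the 10 genes, 8 had a window, with 12 windows in all. Capitals mark matches to any of 5 motifs searched on both strands: the ETS core GAGGAA, the ETS-IRF composite (GGAA, any 2 letters, GAAA), the interferon response type (GAAA, any 2 letters, GAAA), the octamer ATGCAAAT and the kappa B type (GGGA, any 4 letters, CC). The composite and the interferon response type differ at the second letter, so the same 10 bases on the same strand cannot match both.
Tlr1 (chr5:64933509-64933808, minus strand): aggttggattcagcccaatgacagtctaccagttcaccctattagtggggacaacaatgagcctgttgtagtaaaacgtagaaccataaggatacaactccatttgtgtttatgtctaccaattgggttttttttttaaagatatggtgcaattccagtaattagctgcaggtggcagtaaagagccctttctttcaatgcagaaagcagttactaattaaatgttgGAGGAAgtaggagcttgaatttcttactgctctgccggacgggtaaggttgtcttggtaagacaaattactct
Tlr6 (chr5:64959117-64959416, minus strand): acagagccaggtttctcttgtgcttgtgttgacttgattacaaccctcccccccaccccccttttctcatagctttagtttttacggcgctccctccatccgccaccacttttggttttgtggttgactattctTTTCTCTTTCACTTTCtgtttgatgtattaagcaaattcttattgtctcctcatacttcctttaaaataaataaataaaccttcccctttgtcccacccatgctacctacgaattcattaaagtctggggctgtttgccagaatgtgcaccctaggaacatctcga
The Tlr1 window held 1 ETS core, at position -23 counted from the start, which is position 0. The Tlr6 window held 2 overlapping matches of the interferon response type on the opposite strand, at -116 and -110. Each of these genes has a second window at another annotated start, and those windows held 0 matches. Of 32851 promoter windows, 28.3% held the ETS core and 3.44% the interferon response type, against 2.72% for the composite, 1.74% for the octamer and 20.7% for the kappa B type. A match describes letters only and no binding was measured.

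Tlr4, the lipopolysaccharide receptor, was read at 104, 85.2 and 157 on naive arrays. On germinal center arrays it was 78.3, 34.5 and 60.4. Plasma arrays gave 109.8, 68.2, 69.3 and 73.8, and memory arrays 68.6, 50.5, 67.5 and 68.5. All germinal center and memory arrays lay under the naive arrays, while plasma arrays overlapped them. The germinal center difference from naive cells was -1.03 ± 0.29 (interval -1.66 to -0.40, limma adjusted p = 0.0232). That call was lost without germinal center replicate 2 (-0.70, limma adjusted p = 0.103), without naive replicate 3 (-0.78, limma adjusted p = 0.109), with quantile normalization (-0.84, limma adjusted p = 0.0726) and with the actin ratio as a term (-0.58, limma adjusted p = 0.597). It was also lost with a floor of 16 (limma adjusted p = 0.058) and in the compared subsets alone (limma adjusted p = 0.104). The second brightest probe set gave -0.87 with a limma adjusted p of 0.0629, and the remaining probe sets lay below background on every array. The memory difference was -0.82 ± 0.27 (interval -1.41 to -0.23, limma adjusted p = 0.116), called without germinal center replicate 2 (limma adjusted p = 0.0476). In plasma cells the difference was -0.50 ± 0.27 (interval -1.09 to 0.09, limma adjusted p = 0.198). No neighbours in the order naive, plasma, memory, germinal center were called different. Plasma exceeded germinal center cells in Tlr4 by 0.53 ± 0.27, which was not called (limma adjusted p = 0.209). That difference was called with the second brightest probe set (0.96, limma adjusted p = 0.0233) and with the mean of probe sets (0.44, limma adjusted p = 0.011).

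Tlr7, the endosomal receptor for single-stranded RNA, was lower in germinal center and in plasma cells. Naive arrays gave 102, 86.3 and 83.5. Plasma arrays gave 24.5, 20.6, 27.3 and 30.5, and germinal center arrays 22.0, 18.2 and 16.4. Memory arrays gave 61.1, 75.0, 57.5 and 62.1, lying between the naive arrays and those of the other subsets with no overlap on either side. The log2 difference from naive cells was -2.27 ± 0.17 in germinal center (limma adjusted p = 2.63e-07) and -1.83 ± 0.16 in plasma cells (limma adjusted p = 5.34e-07). In memory cells it was -0.51 ± 0.16 (interval -0.85 to -0.17, adjusted p = 0.0864) and was not called. Memory cells exceeded germinal center cells by 1.76 ± 0.16 (limma adjusted p = 1.52e-06), and plasma lay below memory cells by -1.32 ± 0.15 (limma adjusted p = 5.43e-06). The order was naive, memory, plasma, germinal center, and of the neighbours only memory and plasma were called different. Plasma and germinal center cells differed in Tlr7 by 0.44 ± 0.16 (limma adjusted p = 0.0585), called without plasma replicate 2 (0.54, limma adjusted p = 0.0242) or germinal center replicate 1 (0.56, limma adjusted p = 0.03). Quantile normalization also gave a call (0.54, limma adjusted p = 0.0363). The other Tlr7 probe sets were dim. Both lay below background on all plasma and germinal center arrays, and the brighter of them gave -0.71 for germinal center and -0.67 for plasma against naive cells, neither called (limma adjusted p = 0.094 and 0.064).

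Tlr9, the endosomal receptor for DNA rich in unmethylated CpG, lay near background on these arrays. It had no other probe set, so little RNA and a probe set that detects it poorly cannot be told apart. Naive arrays gave 10.8, 11.3 and 13.4, of which 1 was above background. Germinal center arrays gave 19.9, 20.4 and 12.4, plasma arrays 13.6, 13.4, 13.5 and 13.8, and memory arrays 18.8, 13.8, 13.6 and 14.3. The log2 difference from naive cells was 0.54 ± 0.19 in germinal center cells (interval 0.14 to 0.94, limma adjusted p = 0.0567). It was 0.21 ± 0.17 in plasma and 0.35 ± 0.17 in memory cells, and neither was called (limma adjusted p = 0.425 and 0.328). The Tlr9 germinal center difference was called without germinal center replicate 3 (0.78, limma adjusted p = 0.0032), without memory replicate 1 (limma adjusted p = 0.0438), with bright centring (0.72, limma adjusted p = 0.0422), with the mean of probe sets and with a trended, robust fit. With the actin ratio as a term it was -0.0096. Without germinal center replicate 3, plasma lay below germinal center cells by -0.57 (limma adjusted p = 0.0143).

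**Figure D2:**
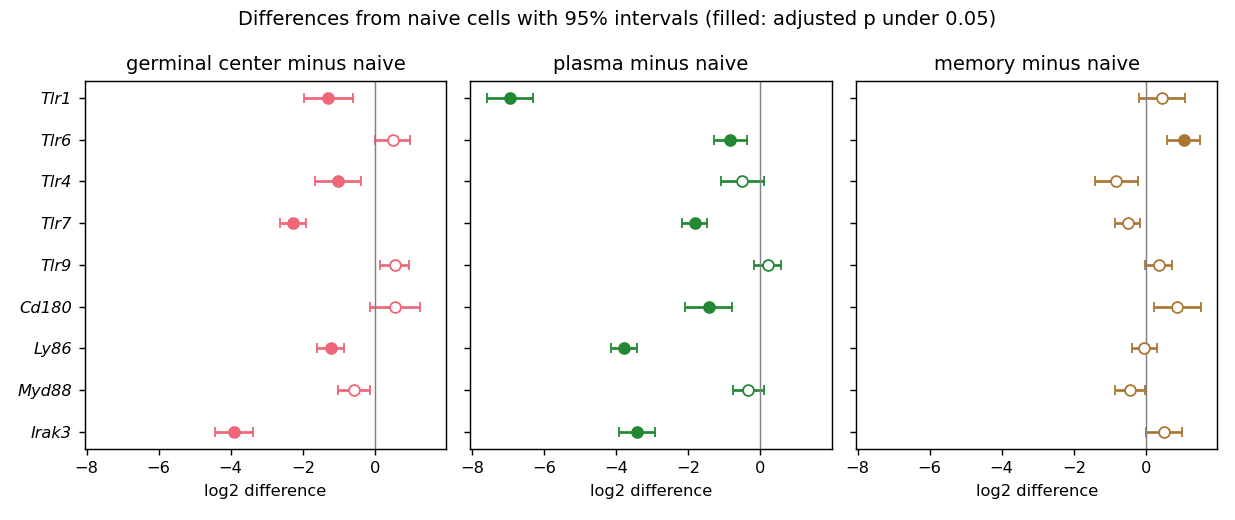
Log2 difference from naive cells of the 9 genes in germinal center, plasma and memory cells, from limma on all 14 arrays. Points are fitted differences, bars are 95% intervals and filled points were called at an adjusted p under 0.05. Tlr1 in plasma cells lies furthest from 0, at -6.95.

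Ly86, which encodes MD-1, was lower in plasma and germinal center cells. Naive arrays gave 3439, 3243 and 3171, and memory arrays 2912, 3479, 3182 and 3209.6, which overlapped. The germinal center values were 1894, 1132 and 1283. Plasma arrays gave 282, 240.4, 199.9 and 238. Germinal center arrays lay under all naive and memory arrays, and plasma arrays lay under all others. Ly86 was 13.8-fold lower in plasma than in naive cells (log2 difference -3.78 ± 0.17, limma adjusted p = 5.66e-10). It was 2.34-fold lower in germinal center than in naive cells (-1.23 ± 0.18, limma adjusted p = 0.000168). Memory and naive cells differed by -0.04 ± 0.17 (interval -0.40 to 0.32, limma adjusted p = 0.948). Against germinal center cells, memory cells were 2.28-fold higher (1.19 ± 0.17, limma adjusted p = 0.00012) and plasma cells 5.88-fold lower (-2.56 ± 0.17, limma adjusted p = 4.15e-08). The order was naive, memory, germinal center, plasma, and only naive and memory, as neighbours, were not called different.

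Cd180, whose product MD-1 accompanies, was read at 269, 250.01 and 213 on naive arrays. Plasma arrays gave 115, 69.4, 71.8 and 113. Germinal center arrays gave 188, 545 and 448, and memory arrays 474, 528, 389 and 399.9. Plasma arrays lay under all others, and memory arrays lay over the naive arrays. Germinal center replicate 1 lay below the naive arrays, and the other germinal center arrays lay above them. The log2 difference of plasma from naive cells was -1.44 ± 0.31 (limma adjusted p = 0.00214), from germinal center cells -1.99 ± 0.31 (limma adjusted p = 0.000183) and from memory cells -2.31 ± 0.28 (limma adjusted p = 1.48e-05). The germinal center difference from naive cells was 0.56 ± 0.33 (interval -0.14 to 1.26, limma adjusted p = 0.277), and without germinal center replicate 1 it was 1.02 (limma adjusted p = 0.0089). The memory difference from naive cells was 0.87 ± 0.31 (interval 0.21 to 1.53, limma adjusted p = 0.133). It was called in a fit of the compared subsets alone (limma adjusted p = 0.014) and without germinal center replicate 1 (limma adjusted p = 0.0195). The order was memory, germinal center, naive, plasma, and of the neighbours only naive and plasma were called different.

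**Figure D3:**
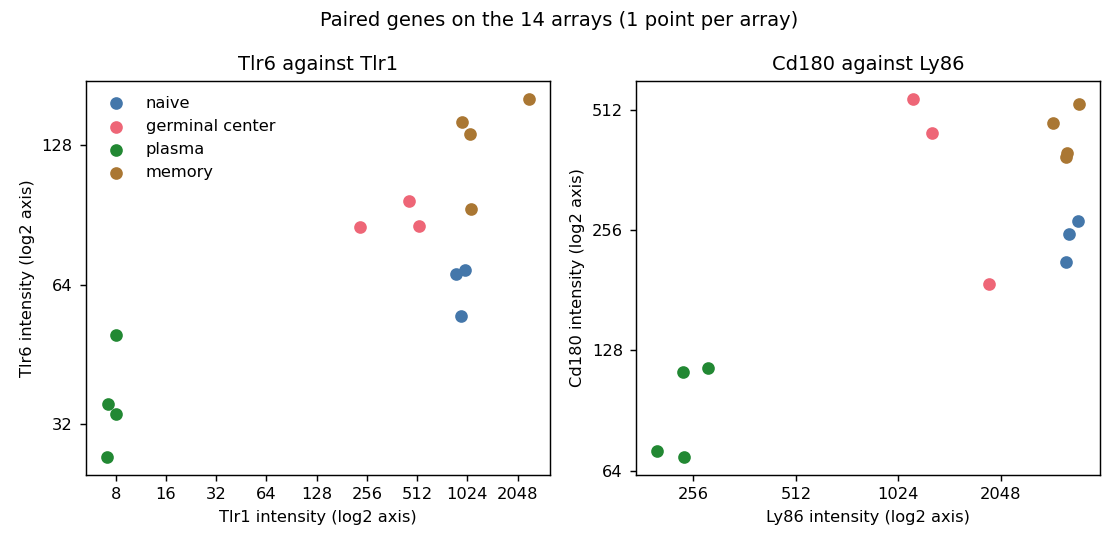
Intensity of Cd180 against Ly86 and of Tlr6 against Tlr1 on the 14 arrays, both axes on a log scale, with 1 point per array coloured by subset. Plasma arrays lie apart at low values of both genes in each panel, and memory arrays lie above the naive arrays for Cd180 and Tlr6.

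Ly86 and Cd180 encode a receptor and the partner it needs, and their promoter windows are shown for comparison.
Ly86 (chr13:37345095-37345394, plus strand): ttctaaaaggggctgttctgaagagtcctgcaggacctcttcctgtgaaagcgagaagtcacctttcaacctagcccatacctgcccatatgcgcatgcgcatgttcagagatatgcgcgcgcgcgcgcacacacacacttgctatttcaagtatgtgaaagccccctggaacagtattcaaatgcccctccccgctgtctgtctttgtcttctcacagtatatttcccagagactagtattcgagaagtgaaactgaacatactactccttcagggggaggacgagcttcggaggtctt
Cd180 (chr13:102693297-102693596, plus strand): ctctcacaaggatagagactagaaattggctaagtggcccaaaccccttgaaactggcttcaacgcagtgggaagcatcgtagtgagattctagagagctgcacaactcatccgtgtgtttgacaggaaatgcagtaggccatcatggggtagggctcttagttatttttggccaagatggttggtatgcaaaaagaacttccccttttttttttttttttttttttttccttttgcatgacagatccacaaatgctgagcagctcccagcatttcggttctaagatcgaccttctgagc
Neither window held a match to any of the 5 motifs, which says only that these letters are not in these windows. Across the arrays, germinal center cells had less Ly86 than naive cells while Cd180 was not called different. By root mean square difference of log2 values centred on each gene's mean over the 14 arrays, Ly86 ranked 5366 of 18192 genes by likeness to Cd180, at 1.00. Tlr6 ranked 23 by the same measure, at 0.453. In the other direction, Cd180 ranked 636 by likeness to Ly86 and 101 by likeness to Tlr6. The measure is not scaled, so genes that change in the same direction by unlike amounts also rank apart. Both Ly86 and Cd180 were lower in plasma than in every other subset, by -3.78 and -1.44 against naive cells.

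Myd88, the adaptor that most of these receptors use, was read at 326, 364 and 296 on naive arrays. Plasma arrays gave 237, 286, 270.3 and 250.4, germinal center arrays 165, 215 and 298, and memory arrays 217, 203, 326 and 237. Plasma arrays lay under all naive arrays, and the other subsets overlapped them. Differences from naive cells were -0.58 ± 0.21 in germinal center (interval -1.03 to -0.12, limma adjusted p = 0.0722), -0.33 ± 0.20 in plasma (interval -0.76 to 0.09, adjusted p = 0.238) and -0.44 ± 0.20 in memory cells (interval -0.87 to -0.02, adjusted p = 0.256). The germinal center difference of Myd88 was called without germinal center replicate 3 (-0.80, limma adjusted p = 0.0119), without memory replicate 3 (limma adjusted p = 0.0481) and with median centring (-0.72, limma adjusted p = 0.0329).

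Irak3, which encodes IRAK-M, an inhibitory member of the kinase family best known from myeloid cells, was present in naive and memory cells and near background in the others. Naive arrays gave 150.3, 108 and 166, and memory arrays 218, 177, 264 and 149. The germinal center values were 9.60, 11.2 and 7.50, none above background. Plasma arrays gave 10.4, 14.6, 11.3 and 16.4, of which 1 was above background. The naive and memory arrays did not overlap those of the other subsets. Irak3 was at least 9.85-fold lower in germinal center than in naive cells (log2 difference -3.90 ± 0.25, limma adjusted p = 5.28e-08). It was at least 13.9-fold higher in memory than in germinal center cells (4.40 ± 0.23, limma adjusted p = 7.4e-09). The plasma difference was -3.43 ± 0.23 from naive cells (limma adjusted p = 4.03e-08) and -3.93 ± 0.21 from memory cells (limma adjusted p = 3.61e-09), sizes that rest on plasma values mostly not above background. Memory and naive cells differed by 0.50 ± 0.23 (interval 0.01 to 0.99, limma adjusted p = 0.272). The order was memory, naive, and then plasma and germinal center, which have no order at this signal. Of the neighbours, naive and plasma were called different, and memory and naive were not. A second, dimmer probe set lay below background on all plasma and germinal center arrays and above it on 1 of 3 naive and 4 of 4 memory arrays.

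The genes around these receptors were read from a list of 46, of which 40 had a probe set. In germinal center cells 16 were lower (40.0%) and 1 higher (2.5%) than in naive cells, against 11.1% and 8.37% of all genes. In plasma cells 19 were lower (47.5%) and 3 higher (7.5%), against 16.1% and 14.2%. In memory cells 2 were lower (5.0%) and 1 higher (2.5%), near the 3.26% and 2.31% of all genes. This list too was chosen with earlier results of these data known, so its shares are a description and no test. The counts by role below are to be read beside the same all-gene shares. The median log2 differences over the 40 genes were -0.65, -0.57 and -0.09, beside the all-gene values above.

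**Figure D4:**
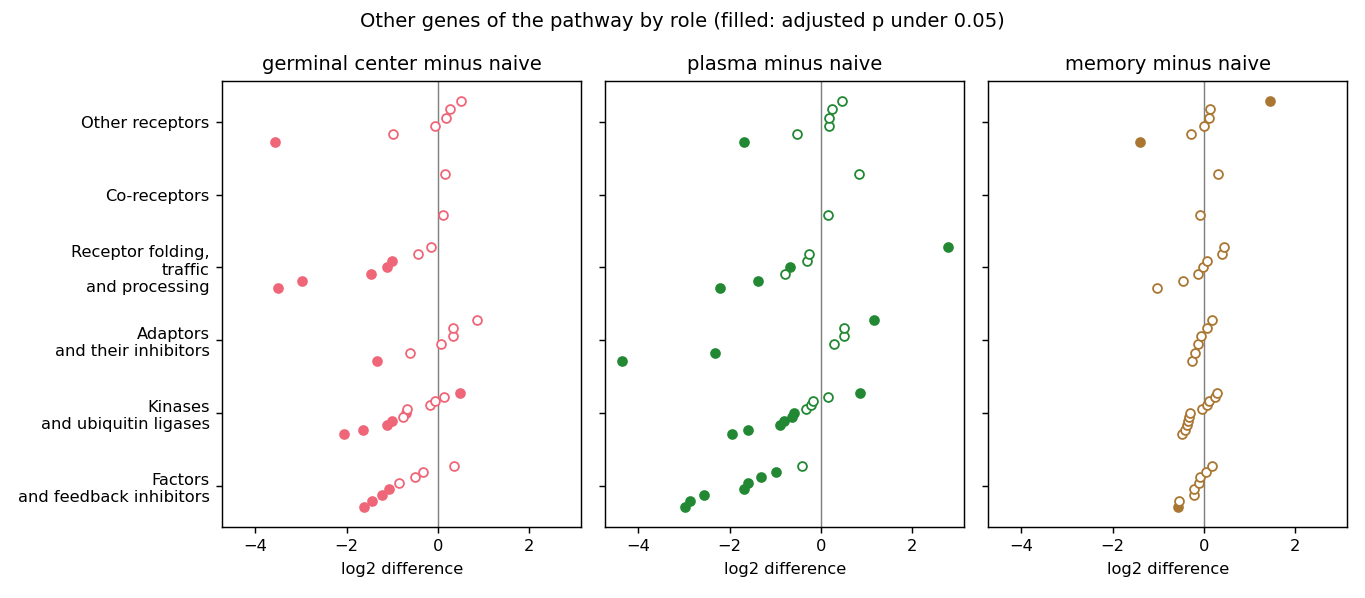
Log2 difference from naive cells of the 40 measured pathway genes, grouped by role, in germinal center, plasma and memory cells. Each point is a gene and filled points were called at an adjusted p under 0.05. Among folding and traffic genes Hsp90b1 lies at -2.97 in germinal center and 2.78 in plasma cells.

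Among the other receptors, Tlr2, the partner of TLR1 and TLR6, was at 169, 119.9 and 202 on naive arrays. Germinal center arrays gave 10.9, 15.4 and 14.8, of which 2 were above background. Memory arrays gave 39.2, 70.2, 72.0 and 65.7, under all naive arrays, and plasma arrays 98.7, 107, 105 and 134, which overlapped them. The log2 difference from naive cells was -3.56 ± 0.25 in germinal center (limma adjusted p = 1.25e-07), -1.41 ± 0.23 in memory (limma adjusted p = 0.00215) and -0.53 ± 0.23 in plasma cells, which was not called. Tlr3, the endosomal receptor for double-stranded RNA, was at 20.2, 35.6 and 30.9 on naive and 46.8, 154, 80.4 and 57.9 on memory arrays, a log2 difference of 1.44 ± 0.35 (limma adjusted p = 0.0289). That call was lost without memory replicate 2, without memory replicate 3 and without any single naive array (1.10 to 1.61, limma adjusted p = 0.0502 to 0.117). It was also lost with a floor at an intensity of 16 (limma adjusted p = 0.0544) and in a fit of the compared subsets alone (limma adjusted p = 0.0673). Its second probe set, above background on no array, gave -0.049. In plasma cells Tlr3 was above background on no array and was at least 2.05-fold lower than in naive cells (-1.68 ± 0.35, limma adjusted p = 0.00196). With the floor of 16, which lies above most arrays' backgrounds, the difference was -0.81 and was not called (limma adjusted p = 0.137), and the second probe set gave -0.011. Of the co-receptors, Cd14, also on the myeloid list, was above background on no array, and Ly96, which encodes the TLR4 partner MD-2, was above it on 3 of 4 plasma, 1 of 4 memory and 0 naive or germinal center arrays.

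Of 7 genes that fold, carry or process the receptors, 5 were lower in germinal center cells. In plasma cells 3 were lower and 1 was higher. Hsp90b1, which encodes the chaperone gp96 that Toll-like receptors and many secreted proteins need, was lower in germinal center cells (-2.97 ± 0.45, limma adjusted p = 0.000237) and higher in plasma cells (2.78 ± 0.42, limma adjusted p = 0.000123). Nrros, a membrane protein of the endoplasmic reticulum, was at 25.0 in germinal center and 284.6 in naive cells (-3.51 ± 0.24, limma adjusted p = 9.3e-08). Unc93b1, which escorts TLR7 and TLR9 to endosomes, differed by -0.997 ± 0.33 in germinal center (limma adjusted p = 0.048) and by -0.78 ± 0.31 in plasma cells (limma adjusted p = 0.073). The germinal center call was marginal. It was lost with quantile normalization, with bright centring, with a floor, in the compared subsets alone and with the actin ratio as a term (-0.68, limma adjusted p = 0.60), and without any single array other than plasma replicate 4, germinal center replicate 3 or memory replicate 2. Without germinal center replicate 1 the Unc93b1 difference was -0.62 (limma adjusted p = 0.193). Slc15a4, an endosomal transporter needed for TLR7 and TLR9 responses, was lower in plasma cells (-2.21 ± 0.34, limma adjusted p = 0.00016). Its second probe set, above background on no array, gave 0.10.

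Among 6 adaptors and inhibitors, 1 was lower in germinal center cells (16.7%, against 11.1% of all genes). In plasma cells 2 were lower (33.3%, against 16.1%) and 1 higher (16.7%, against 14.2%). Pik3ap1, which encodes the adaptor BCAP, was at 48.3 in plasma and 995 in naive cells (-4.37 ± 0.16, limma adjusted p = 1.17e-10). Sigirr, an inhibitory receptor of the family, was lower in germinal center (-1.34 ± 0.21, limma adjusted p = 0.000407) and plasma cells (-2.32 ± 0.20, limma adjusted p = 5.25e-07). Tirap, the bridge from TLR2 and TLR4 to MyD88, was higher in plasma cells (1.16 ± 0.29, limma adjusted p = 0.0065). Tollip, an inhibitor of IRAK signalling, was called in neither (-0.61 ± 0.23 and 0.49 ± 0.22). No gene of this role was called in memory cells.

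Of 11 kinases and ubiquitin ligases, 5 were lower and 1 higher in germinal center cells, and 6 lower and 1 higher in plasma cells. Irak2, a kinase that sustains the response, was at 43.5, 48.8 and 38.8 on naive and 37.0, 30.2, 34.4 and 33.7 on memory arrays. Germinal center arrays gave 10.6, 10.3 and 10.4, none above background, and plasma arrays 14.5, 11.3, 14.4 and 18.3. Irak2 was at least 3.08-fold lower in germinal center than in naive cells (limma adjusted p = 4.15e-07). In plasma cells the log2 difference was -1.59 ± 0.15 (limma adjusted p = 1.27e-06). Irak1, which acts early in the complex, was called in no comparison with naive cells (log2 differences of -0.07, -0.17 and 0.11 in germinal center, plasma and memory cells), nor was the ubiquitin ligase Traf6 (-0.17, -0.22 and -0.34). Peli1, a ligase of the same complex, was lower in germinal center cells (-1.64 ± 0.23, limma adjusted p = 0.000137). Ikbkb, the kinase that releases NF-kappa B, was lower in plasma cells (-1.95 ± 0.23, limma adjusted p = 1.22e-05). Its second probe set, above background, gave 0.17 ± 0.18 and was not called (limma adjusted p = 0.578), so the lower level was not seen with it.

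Of 8 factors and feedback inhibitors, 4 were lower in germinal center cells and 7 in plasma cells. In memory cells 1 was lower, the interferon regulator Irf7 (-0.57 ± 0.15, limma adjusted p = 0.0395). Rela, the p65 subunit of NF-kappa B, was lower in germinal center cells (-1.63 ± 0.27, limma adjusted p = 0.000554). Irf5, a factor that TLR7 and TLR9 activate, was lower there too (-1.44 ± 0.31, limma adjusted p = 0.00391). Its second probe set, above background, gave 0.084 ± 0.28 and was not called (limma adjusted p = 0.889). In plasma cells the largest differences were in Tnfaip3, which encodes the inhibitor A20 (-2.98 ± 0.28, limma adjusted p = 1.22e-06), and Rel, a subunit of NF-kappa B (-2.86 ± 0.31, limma adjusted p = 5.3e-06). Rel lay above background on 2 of 4 plasma arrays. The second Tnfaip3 probe set, above background on no array, gave 0.023.

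With the actin ratio as a term, 3 of the 9 genes in place of 5 were lower in germinal center than in naive cells, and 6 pathway genes in place of 16. More pathway genes than these 6 are named above as lower in germinal center cells. Unc93b1 was therefore not the only named pathway gene to lose its call with this term. Over all 18193 genes, 723 were called lower with that term in place of 2019. Every germinal center array had a higher actin ratio than every naive array, so the term and the subset cannot be fully told apart. A lost call therefore does not show what made the difference. Ly86, Tlr7 and Irak3 remained called, at -0.99, -2.38 and -4.45 (limma adjusted p = 0.0365, 5.83e-05 and 2.27e-06).

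The genes whose centred log2 values were nearest a member over the 14 arrays were taken as a description, with no test. Nearest to Tlr1 were the B cell factor Ebf1 (root mean square difference 0.383), the inhibitory receptor Cd22 (0.388) and the class II accessory gene H2-Ob (0.423), where the median over all genes was 3.16. Nearest to Ly86 were Fcrl1 (0.330), the proton channel gene Hvcn1 (0.345) and Ms4a1 (0.353), which encodes CD20, with a median of 1.66. Nearest to Tlr7 was Irak2 (0.193), ahead of Tha1 (0.300) and E130311K13Rik (0.305), with a median of 0.984. For Irak3 they were Sgk1 (0.509), Abca1 (0.562) and Plpp3 (0.569), with a median of 2.04. Nearest to Cd180 were Zfp362 (0.318), Ptpn1 (0.332) and Ikzf3 (0.343), with a median of 1.06. Nearest to Tlr6 were Zfp239 (0.241), Mgat5 (0.244) and Adm (0.307), with a median of 0.835. For Tlr4 they were Donson (0.235), Slc4a1ap (0.268) and Ddx47 (0.274), with a median of 0.594.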

How the data were processed

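Amplified, biotin-labelled total RNA was hybridised to 1-colour Affymetrix arrays. The deposited table holds 1 linear intensity per probe set and array, made by the authors with RMA per the submitters' processing notes; version, software and genome build are not given in the sources used here. Log2 was taken with no pseudocount. Of 45101 probe sets, 64 were controls, 34945 had 1 gene symbol, 932 several and 9160 none; genes came from single-symbol probe sets. The members and lists were chosen with earlier results of these data known. limma 3.58.1 in R 4.3.3 (lmFit and eBayes) was fitted on all 14 arrays with 1 mean per subset. The Benjamini-Hochberg adjustment ran within each of 6 comparisons over 18193 genes. The fit was tested on simulated data.

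From the pathway list the text names up to 2 called genes per role and comparison with naive cells, those with the largest difference, plus Ly96, Cd14, Unc93b1, Tirap, Irak1, Irak2, Traf6, Tollip and Sigirr. Pathway genes Tlr11, Ticam2, Traf3, Ripk1, Chuk and Nfkb1, and some marker genes, were not analysed here. Alternatives were other normalizations and centring, a floor, a filter, other probe sets, other fits, a replicate block, the actin ratio and leaving out each array. Promoter windows came from RefSeq on GRCm38.p6. Figures were drawn with matplotlib 3.10.9.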

Additional observations from a re-analysis of the deposited data

Results flagged for a closer look

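In 18 groups of 4 arrays, 4 values stood apart from the other arrays of their group by Dixon's 95% criterion, which chance passes in about 1 group in 20. Tlr1 was at 2400.2 on memory replicate 1, where the other memory arrays gave 958 to 1082. Tlr9 was at 18.8 on the same array, where the others gave 13.6 to 14.3. Tlr4 was at 50.5 on memory replicate 2 (others 67.5 to 68.6) and at 109.8 on plasma replicate 1 (others 68.2 to 73.8).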

How the results depend on the processing

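Of 54 differences between subsets in the 9 genes, 26 were called, and 18 of those held under every alternative that the gene had. With each array left out included, alternatives numbered 25 for Tlr4, Tlr7 and Irak3. The other genes had 24, with no second probe set to read. Of the differences that held throughout, only those of Irak3 and Tlr7 were also read from a second probe set. They were memory against germinal center and plasma against memory cells. Of the 28 not called, 18 stayed so. No called difference of a member changed sign. With array centring on bright genes the share of calls that were higher, over all genes, went from 43.0% to 57.6% in germinal center, from 46.8% to 67.4% in plasma and from 41.5% to 68.2% in memory against naive cells, and with median centring to 30.2% in germinal center and 34.1% in plasma cells. With the actin ratio as a term it was 53.1% in germinal center against naive cells, and in memory against germinal center cells it went from 48.8% to 35.6%. The causes were not tested.

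Only the larger moves of the counts are listed here, and smaller ones are left out. Those left out include a lost call of Tlr4 alone or a gained call of Myd88 in germinal center cells. A lost call of Tlr6 in plasma cells is left out too, and all of these are given above. Germinal center against naive cells gave 0 members higher, 1 with bright centring, with the mean of probe sets and with a trended, robust fit, and 0 to 1 with an array left out. It gave 5 lower and 3 with the actin ratio. Of pathway genes 1 was higher, 2 with quantile normalization, bright centring or a filter, 0 with median centring, the mean of probe sets, the trended fit or the 2 subsets alone, and 0 to 2 with an array left out. Those lower went from 16 to 6 with the actin ratio. Plasma against naive cells gave 3 pathway genes higher, 5 with quantile normalization or the mean of probe sets, 7 with bright centring, and 3 to 5 with an array left out. Memory against naive cells gave 1 member higher, 2 in the 2 subsets alone and 0 to 2 with an array left out, and 0 to 1 lower. Of pathway genes 1 was higher, 0 with a floor or the 2 subsets alone, and 0 to 1 with an array left out, and 2 were lower, 1 with quantile normalization, bright centring, a filter or the trended fit, and 1 to 3 with an array left out. Plasma against germinal center cells gave 0 members higher, 1 with quantile normalization, the mean of probe sets or the actin ratio, and 0 to 1 with an array left out, and 7 pathway genes higher, 4 with the actin ratio. Memory against germinal center cells gave 16 pathway genes higher, 6 with the actin ratio, and 3 lower, 1 with median centring, the trended fit, the 2 subsets alone or the replicate block, and 0 to 3 with an array left out.

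The second brightest probe set turned the sign for Ikbkb in germinal center (0.37) and plasma (0.17) against naive cells and in memory against germinal center cells (-0.19), and for Irf5 in germinal center (0.084) and plasma cells (0.067) against naive. For Slc15a4 it gave 0.023 in germinal center and 0.10 in plasma against naive cells, -0.047 in memory against germinal center and 0.13 in plasma against memory cells. For Tnfaip3 it gave 0.023 in plasma against naive and 0.020 against germinal center cells. For Tlr3 it gave -0.049 in memory against naive, -0.17 in memory against germinal center and 0.037 in plasma against memory cells. Of these turned values, none against naive cells was called (limma adjusted p = 0.258 to 0.942). With the second brightest probe set the Tlr7 and Irak3 differences of germinal center and plasma from naive cells were not called.

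The labels do not say whether arrays with the same replicate number belong together. Same-numbered arrays had deviations correlated between -0.22 and 0.25 (median -0.010, 19 pairs). Arrays of other numbers had -0.29 to 0.31 (median -0.005, 54 pairs), and 5 of 14 arrays correlated best with their own number. These values cannot show whether a pairing exists. With the replicate number as a block the calls of members were the same, 20 pathway genes in place of 19 were lower in plasma than in naive cells, and Unc93b1 in germinal center cells was not called (limma adjusted p = 0.0801).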
